A study of Mus musculus with 20 samples.

Results

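The genes described here are 10 cardiac muscle genes measured in RNA of the mouse aortic endothelium: Actc1, Tnnt2, Tnni3, Myh6, Mybpc3, Ryr2, Pln, Hrc, Csrp3 and Ankrd1. They were taken by symbol from a table of 32081 genes, and they were chosen from measured values of these same libraries, namely their higher level in mice given HDL + LNA92a than in mice given HDL. That difference is therefore given below as a description, with no test. Each of the 10 genes is also among the 20442 genes of the variance-stabilized table and among the 16848 genes with a mean of at least 0.5 FPKM (fragments per kilobase of gene length and M reads of the library), the genes that were tested.

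The study sequenced 20 female Apoe-/- mice of strain B6.129P2-Apoetm1Unc/J, 4 in each of 5 groups. Every mouse, the saline controls included, carried the Apoe deletion and had undergone 5/6 nephrectomy, a surgical model of chronic kidney disease, at 9 weeks of age on regular chow. A single retro-orbital injection was given 7 weeks later and the tissue was taken 1 week after it. The groups received saline, 4 mg HDL (high-density lipoprotein), 4 mg HDL + 20 mg/kg LNA92a, 4 mg HDL + 20 mg/kg LNA489, or 4 mg HDL with both at 20 mg/kg, which makes 40 mg/kg in total. LNA92a and LNA489, inhibitors built on locked nucleic acid chemistry, are directed at the microRNAs miR-92a-3p and miR-489-3p, and no group received a control LNA. A library name joins the group to the number of its mouse, so that LNA92a 18 is animal 18 of the HDL + LNA92a group and Dual 21 is animal 21 of the group with both inhibitors. RNA was collected by lysing the endothelial surface with qiazol, and no label says which stretch of the aorta was taken.

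Heart muscle contracts by sliding actin thin filaments along myosin thick filaments inside the sarcomere, and calcium released from the sarcoplasmic reticulum starts each beat through the troponin complex on the thin filament. Many sarcomere proteins exist as a cardiac and a skeletal muscle relative encoded by separate genes, and some also have an atrial and a ventricular relative, so that the ratio of such relatives separates kinds of striated muscle. Endothelial cells do not build sarcomeres. Cardiac muscle lies next to the aorta at its root, while skeletal muscle and fat surround it along its course.

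All 10 members are protein-coding genes on 7 chromosomes, and their positions are given on GRCm38 from the GENCODE M21 annotation. Among the thin filament genes, Actc1 (ENSMUSG00000068614.7, chr2:114047282-114053548, minus strand) encodes cardiac alpha-actin, Tnnt2 (ENSMUSG00000026414.13, chr1:135836354-135852260, plus strand) the cardiac troponin T that ties the complex to tropomyosin, and Tnni3 (ENSMUSG00000035458.15, chr7:4518305-4524229, minus strand) the inhibitory cardiac troponin I. Of the thick filament, Myh6 (ENSMUSG00000040752.15, chr14:54941921-54966927, minus strand) encodes the alpha heavy chain of cardiac myosin and Mybpc3 (ENSMUSG00000002100.15, chr2:91118144-91136516, plus strand) its binding protein C. For calcium handling, Ryr2 (ENSMUSG00000021313.15, chr13:11553102-12106945, minus strand) encodes the cardiac calcium release channel, Pln (ENSMUSG00000038583.12, chr10:53337667-53345987, plus strand) phospholamban, the inhibitor of the calcium pump, and Hrc (ENSMUSG00000038239.11, chr7:45335290-45338974, plus strand) a histidine-rich calcium-binding protein of the reticulum. Csrp3 (ENSMUSG00000030470.15, chr7:48830398-48848033, minus strand) encodes the muscle LIM protein of the Z-disc and Ankrd1 (ENSMUSG00000024803.8, chr19:36111961-36120099, minus strand) a stress-responsive ankyrin repeat protein of the sarcomere. Exons of other genes cover 64.7% of the exon bases of Pln, 4.17% of Tnni3 and 1.69% of Myh6, and none in the other 7 members. Whether reads were counted by strand is not given in the sources used here, so the level of Pln is uncertain.

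The promoters of 4 members are shown because these genes moved together across the libraries and their promoters hold matches to known motifs, some of them shared. Each runs from 250 bases before to 50 after the RefSeq transcription start (build GRCm38.p6), 5′ to 3′ on the gene's strand, with motif matches in capitals. The capitals in Actc1 (chr2:114052826-114053125, minus strand) are a CArG box, the site of serum response factor, and TATAAA. Those in Myh6 (chr14:54966558-54966857, minus strand) are the reverse complement of CATTCC, a site of TEAD factors, and TATAAA. Mybpc3 (chr2:91117894-91118193, plus strand) holds a MEF2 box, and Ankrd1 (chr19:36119795-36120094, minus strand) holds the reverse complement of CATTCC at 2 places and the reverse complement of AGATAA, a site of GATA factors.
Actc1: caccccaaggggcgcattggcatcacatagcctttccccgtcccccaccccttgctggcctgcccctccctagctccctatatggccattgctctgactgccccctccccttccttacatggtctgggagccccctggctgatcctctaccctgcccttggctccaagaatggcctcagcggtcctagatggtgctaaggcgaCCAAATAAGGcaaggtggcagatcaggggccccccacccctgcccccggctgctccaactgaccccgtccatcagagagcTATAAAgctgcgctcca
Myh6: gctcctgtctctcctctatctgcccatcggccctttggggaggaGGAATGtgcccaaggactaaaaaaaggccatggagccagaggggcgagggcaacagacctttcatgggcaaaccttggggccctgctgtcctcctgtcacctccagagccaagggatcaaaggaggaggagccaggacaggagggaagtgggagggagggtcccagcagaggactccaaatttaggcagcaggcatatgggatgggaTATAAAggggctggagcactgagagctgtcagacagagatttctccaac
Mybpc3: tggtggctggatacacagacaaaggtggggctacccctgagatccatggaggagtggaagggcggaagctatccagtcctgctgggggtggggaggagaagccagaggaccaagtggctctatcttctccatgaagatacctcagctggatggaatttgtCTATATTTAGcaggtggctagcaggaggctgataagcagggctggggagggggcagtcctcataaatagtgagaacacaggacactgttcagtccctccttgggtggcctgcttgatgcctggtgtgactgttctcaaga
Ankrd1: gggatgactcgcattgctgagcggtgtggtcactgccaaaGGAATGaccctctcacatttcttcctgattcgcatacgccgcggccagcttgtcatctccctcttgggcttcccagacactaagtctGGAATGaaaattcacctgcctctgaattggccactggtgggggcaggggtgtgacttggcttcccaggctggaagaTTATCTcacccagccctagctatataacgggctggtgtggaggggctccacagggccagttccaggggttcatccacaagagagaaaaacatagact

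No motif was common to the members. On either strand, CATTCC was present in Tnnt2, Myh6 and Ankrd1 and in 14.7% of 32851 mouse promoters of the same length. Counted as the members are, by any promoter of a gene, it was present in 16.6% of 27025 genes. AGATAA was present in Tnnt2, Pln and Ankrd1 and in 11.2% of promoters (12.7% of genes). TATAAA was present in Actc1, Myh6 and Pln and in 13.6% of promoters (15.7% of genes). The CArG box was found among the members in Actc1 only and in 1.63% of promoters (1.81% of genes). The MEF2 box was found in Mybpc3 only and in 0.557% of promoters (0.636% of genes). None of these motifs overlapped another in the members. Tnni3, Ryr2, Hrc and Csrp3 held none of the 5 in this window, which says only that these letters are not in it. The RefSeq start lies away from the start of the annotated gene by 1701 bases in Tnni3, 673 in Actc1, 320 in Myh6 and 255 in Ankrd1. Counted from the RefSeq start, TATAAA begins at position 34 in Actc1 and 2 in Myh6, after the start. The promoter of Myl7, an atrial myosin light chain described below, holds a CArG box and CATTCC.

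Libraries held 11.6 to 21.4 M assigned reads, of which the 10 members took 162 (HDL 4) to 19349 (LNA92a 18), or 10.2 to 1665 per M reads. Several libraries stood apart in other tissues. The endothelial gene Pecam1 was detected in all 20 libraries but ranged from 10.8 FPKM in HDL 4 to 1008 in HDL 23. LNA489 14 had 1907 FPKM summed over 25 skeletal muscle genes, against 334 in the next highest library. Saline 2 and Dual 10 had 1906 and 1602 FPKM summed over 7 adrenal cortex genes, against at most 24.4 elsewhere. Fat genes summed to 152 (HDL 3) to 3775 FPKM (HDL 4) over 12 genes. The ribosomal gene Rn18s-rs5 took 6.07% to 22.4% of reads in the HDL + LNA92a group and 3.25% to 12.2% elsewhere, which lowers all other FPKM in libraries rich in it. In bulk tissue, fewer cells of a type and less RNA per cell cannot be told apart.

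Across the 20 libraries the 10 genes varied together, and a library high in 1 member was as a rule high in the others. The mean over members of log2(FPKM + 0.1) ran from 4.78 in LNA92a 18 and 4.09 in Saline 2 to -1.42 in Dual 21 and -1.68 in HDL 4. Libraries of the HDL + LNA92a group took ranks 1, 3, 4 and 9 of 20, those of HDL ranks 12, 15, 17 and 20, and those of saline ranks 2, 7, 16 and 18. The HDL + LNA489 libraries took ranks 5, 6, 10 and 13 and the dual libraries ranks 8, 11, 14 and 19. The saline group thus held both the second highest library and the third lowest, and only HDL + LNA92a and HDL did not overlap in this mean. Among the 45 pairs of members, Pearson's r of the variance-stabilized values over 20 libraries had a median of 0.90, from 0.72 for Ryr2 with Hrc to 0.98 for Tnnt2 with Tnni3. These correlations are descriptions, since the genes share libraries, depth and the measured values that chose them.

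**Figure D1:**
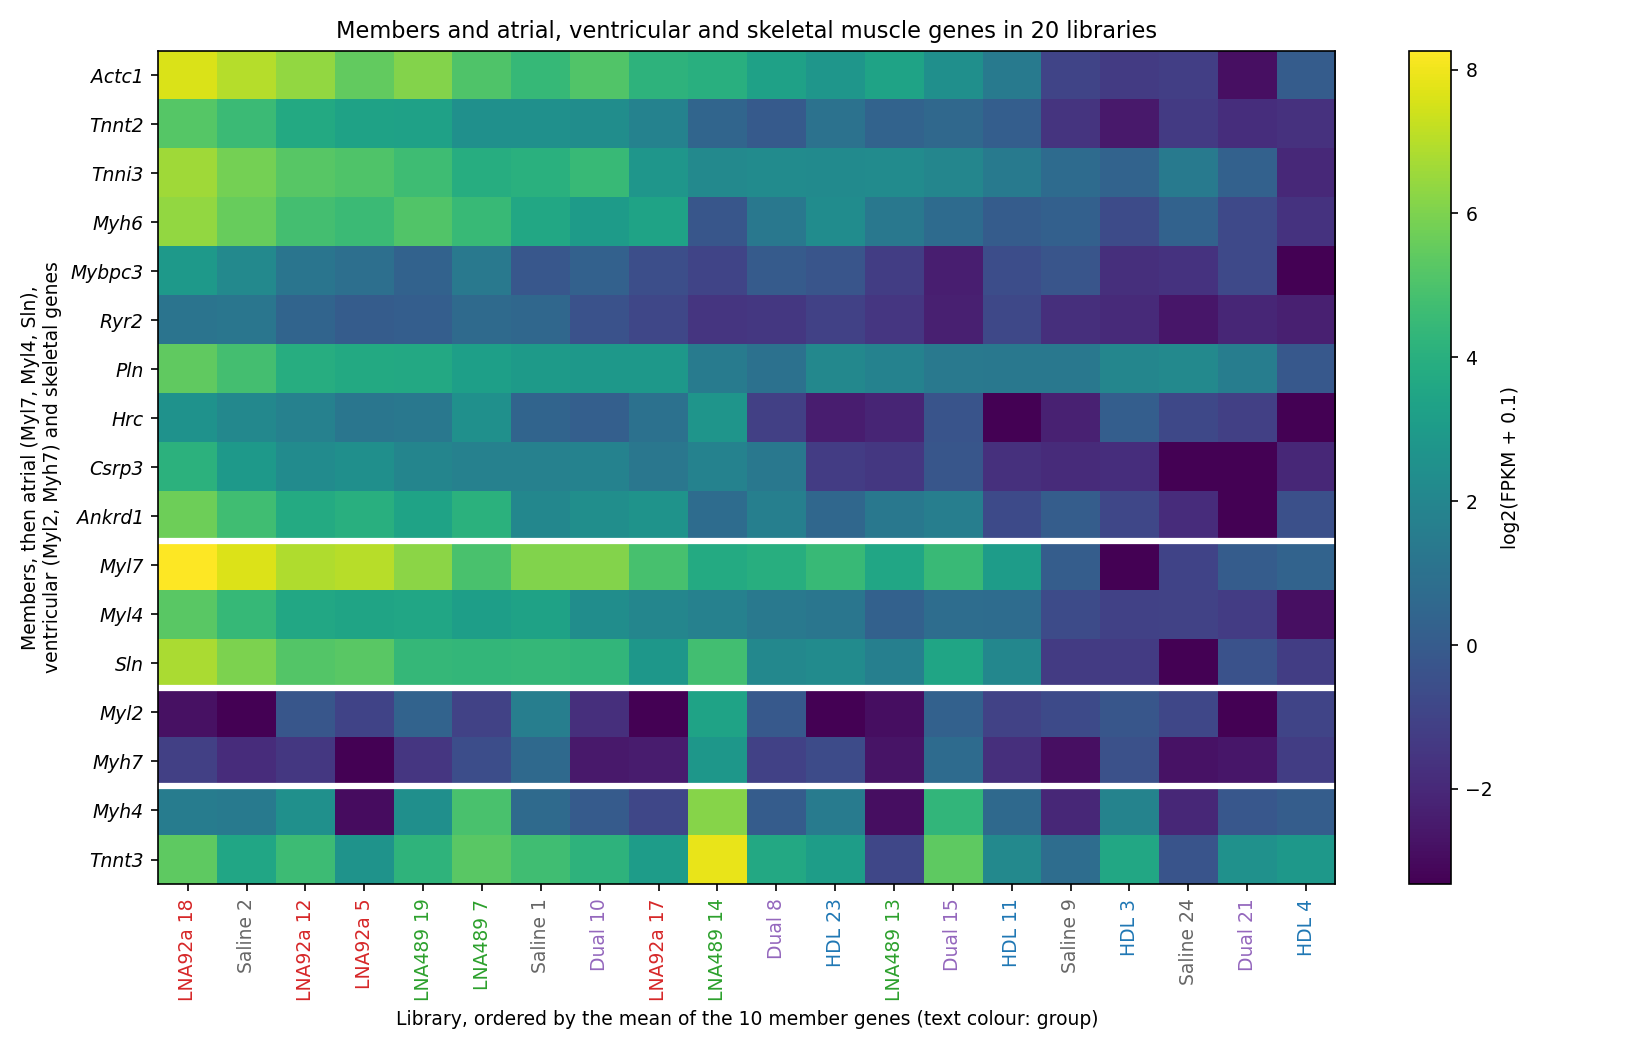
Level of each gene (rows) in each library (columns, ordered by the mean of the 10 members, label colour by group) as log2(FPKM + 0.1). The members and the atrial genes Myl7, Myl4 and Sln fade together from LNA92a 18 at the left to HDL 4 at the right, while Myl2, Myh7 and the skeletal genes peak in LNA489 14.

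Of the thin filament genes, Actc1 and Tnni3 were among the members highest per length. Actc1 stood at 21.9, 126, 0.426 and 0.342 FPKM in Saline 1, 2, 9 and 24 and at 0.300, 0.932, 2.67 and 6.79 FPKM in HDL 3, 4, 11 and 23. Its values were 44.0, 82.7, 18.0 and 194 FPKM in LNA92a 5, 12, 17 and 18, then 33.5, 10.5, 15.5 and 68.6 in LNA489 7, 13, 14 and 19, and 9.89, 34.9, 5.37 and 0.038 in Dual 8, 10, 15 and 21. All 4 HDL + LNA92a libraries and all 4 HDL + LNA489 libraries lay above all 4 HDL libraries, while saline spanned nearly the whole range. Tnni3 read 16.4, 57.0, 1.56 and 2.57 FPKM in the saline libraries in the same order, and 1.177, 0.152, 2.62 and 4.55 in HDL. It reached 33.8, 38.1, 6.72 and 98.7 FPKM in LNA92a, against 14.6, 4.65, 4.25 and 25.2 in LNA489 and 4.68, 22.4, 3.84 and 1.11 in the dual group. HDL + LNA92a lay above HDL in every library, and each of the other pairs of groups overlapped. Tnnt2 followed a similar order of libraries at lower levels per length, from 0.073 FPKM in HDL 3 to 37.4 in LNA92a 18, with 0.813 ± 0.865 FPKM in HDL and 16.0 ± 14.8 in HDL + LNA92a (SD, n = 4). Its annotated exons total 7752 bases, against 1618 for Actc1 and 2063 for Tnni3, which lowers its FPKM beside theirs.

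Of the thick filament genes, Myh6 stood at 12.3, 48.1, 1.06 and 1.159 FPKM in Saline 1, 2, 9 and 24 and at 0.523, 0.228, 0.948 and 4.79 in HDL 3, 4, 11 and 23. It reached 23.4, 28.1, 10.3 and 83.5 FPKM in LNA92a 5, 12, 17 and 18, then 22.1, 2.37, 0.766 and 34.9 in LNA489 7, 13, 14 and 19, and 2.40, 8.17, 1.54 and 0.497 in Dual 8, 10, 15 and 21. HDL + LNA92a lay above both HDL and the dual group in every library, and the HDL + LNA489 group split into 2 high and 2 low libraries. Mybpc3 was weaker, from 0 reads in HDL 4, a count that allows up to 3 reads or 0.0453 FPKM, to 7.71 FPKM in LNA92a 18. The HDL and HDL + LNA92a groups overlapped for Mybpc3, because LNA92a 17 (0.594 FPKM) lay below HDL 23 (0.733 FPKM).

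Among the calcium handling genes, Pln was the most abundant, with 7.75, 28.0, 2.36 and 4.28 FPKM in Saline 1, 2, 9 and 24 and 3.85, 0.811, 2.37 and 4.18 in HDL 3, 4, 11 and 23. LNA92a 5, 12, 17 and 18 had 13.0, 14.8, 7.12 and 42.8 FPKM of Pln, all above every HDL library and every dual library, though LNA92a 17 exceeded Dual 10 (7.08 FPKM) by little. Its level per library in the HDL + LNA489 and dual groups ran from 1.92 FPKM in Dual 8 to 12.6 in LNA489 19. Pln fell less than other members in libraries low in them. It made up 50.9% of the members' summed FPKM in Dual 21, 44.7% in Saline 24 and 25.4% in HDL 4, against 7.89% in LNA92a 18. Ryr2 was the weakest member per length in 10 of 20 libraries, between 0.061 FPKM in Saline 24 and 2.21 in Saline 2, and was the only member with its highest value in Saline 2. Its HDL libraries (up to 0.465 FPKM in HDL 11) overlapped LNA92a 17 (0.446 FPKM).

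Hrc departed most from the other members, with the lowest Pearson's r with their mean, 0.80. It read 1.22, 4.09, 0.112 and 0.463 FPKM in Saline 1, 2, 9 and 24, and 1.01, 0, 0 and 0.089 in HDL 3, 4, 11 and 23, where the 2 counts of 0 allow up to 0.0735 and 0.0790 FPKM. It read 2.25, 3.27, 1.93 and 5.87 FPKM in LNA92a 5, 12, 17 and 18, against 5.47, 0.127, 6.53 and 2.38 in LNA489 7, 13, 14 and 19 and 0.353, 1.04, 0.713 and 0.361 in Dual 8, 10, 15 and 21. The highest Hrc value of all 20 libraries was thus in LNA489 14, the library rich in skeletal muscle transcripts, where Myh6 ranked 17. Hrc encodes a protein of the reticulum of both heart and skeletal muscle. Pearson's r of Hrc with Tnnt3, the fast skeletal troponin T gene, was 0.70 over 20 libraries, against 0.36 for Myh6 with Tnnt3.

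The Z-disc gene Csrp3 stood at 3.28, 7.51, 0.172 and 0 FPKM in Saline 1, 2, 9 and 24, and at 0.182, 0.141, 0.202 and 0.314 in HDL 3, 4, 11 and 23. It had 5.32, 4.76, 2.29 and 17.5 FPKM in LNA92a 5, 12, 17 and 18, then 3.30, 0.268, 3.42 and 3.82 in LNA489 7, 13, 14 and 19, and 2.40, 3.38, 0.761 and 0 in Dual 8, 10, 15 and 21. The HDL libraries held 6 to 11 Csrp3 reads each, so that their close agreement is at the edge of detection. Csrp3, too, ranked 6 in LNA489 14, and its r with Tnnt3 was 0.64. Ankrd1 read 4.01, 26.5, 0.977 and 0.179 FPKM in Saline 1, 2, 9 and 24 and 0.459, 0.605, 0.498 and 1.34 in HDL 3, 4, 11 and 23. It had 15.6, 13.5, 6.12 and 52.6 FPKM in LNA92a 5, 12, 17 and 18, then 16.6, 2.36, 1.62 and 10.4 in LNA489 7, 13, 14 and 19, and 3.12, 5.12, 3.02 and 0 in Dual 8, 10, 15 and 21. HDL + LNA92a lay above HDL and above the dual group in every library for Ankrd1, and HDL + LNA489 lay above HDL.

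**Figure D2:**
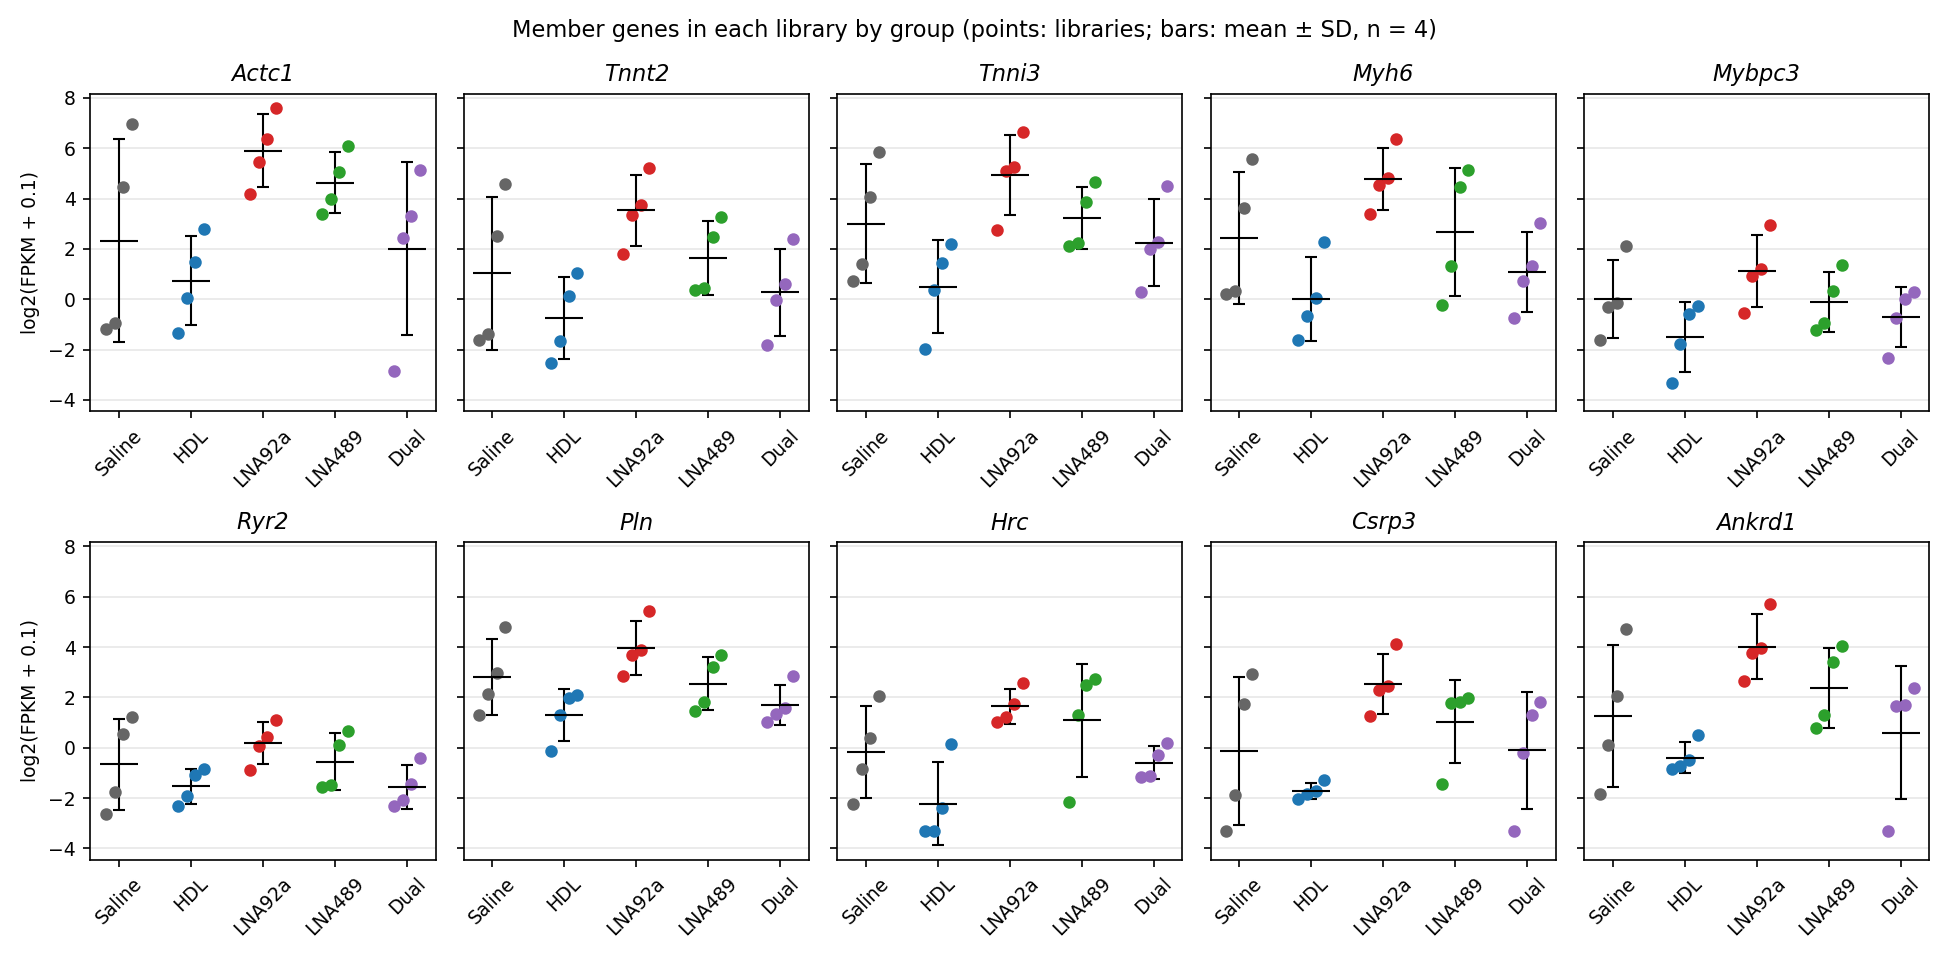
Each panel shows 1 member as log2(FPKM + 0.1), with a point per library and the mean ± SD (n = 4) per group. The HDL + LNA92a points lie above all HDL points for 8 of 10 members. The saline points spread widely, from 0.342 to 126 FPKM for Actc1 and from 2.36 to 28.0 FPKM for Pln.

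The genes closest to the members in pattern were led by atrial genes, which helps to tell cardiac from other striated muscle transcripts. Over 16848 tested genes, the highest Pearson's r with the members' mean variance-stabilized value over 20 libraries belonged to Myl4, the atrial essential light chain of myosin (0.98), Myl7, the atrial regulatory light chain (0.95), Mybphl, a myosin-binding protein of the atria (0.95), and Sln, sarcolipin, a calcium pump regulator of atria and skeletal muscle (0.94). Next were Pcp4l1 (0.93), the Z-disc genes Actn2 (0.91) and Myoz2 (0.91), Smpx (0.90), the cardiac small heat shock protein gene Hspb7 (0.89) and the muscle cytochrome oxidase subunit gene Cox6a2 (0.89). All 10 had their highest level in LNA92a 18. With group means taken out, or on log2(FPKM + 0.1), 9 of these 10 stayed among the nearest 10.

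Myl7 was more abundant per length than any member in the first 5 libraries of the order. It stood at 67.8, 202, 0.974 and 0.402 FPKM in Saline 1, 2, 9 and 24 and at 0, 1.17, 8.36 and 22.4 in HDL 3, 4, 11 and 23. It reached 129, 119, 29.8 and 307 FPKM in LNA92a 5, 12, 17 and 18, then 30.6, 11.6, 13.5 and 75.9 in LNA489 7, 13, 14 and 19, and 15.5, 69.3, 22.9 and 0.943 in Dual 8, 10, 15 and 21. Myl7 was thus highest in the 2 libraries highest in the members and at or below 1.17 FPKM in the 5 lowest. Sln reached 109 FPKM, Myl4 39.0, Mybphl 24.8 and the atrial natriuretic peptide gene Nppa 17.5 FPKM, each in LNA92a 18. Another gene covers 61.5% of the exon bases of Nppa, which makes its level uncertain.

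The genes of the ventricular list were divided. Myl2, the regulatory light chain of ventricle and slow skeletal fibres, had 2.99, 0, 0.501 and 0.446 FPKM in Saline 1, 2, 9 and 24. It had 0.397, 0.750, 0 and 0.044 FPKM in LNA92a 5, 12, 17 and 18. Saline 2, with 1762 reads of Myl7, had 0 reads of Myl2, which allows up to 0.104 FPKM, and LNA92a 18 had 1 read of Myl2 beside 2104 of Myl7. The highest Myl2 level, 10.3 FPKM, was in LNA489 14, the library rich in skeletal muscle transcripts. Myh7, the beta myosin heavy chain, found also in slow skeletal fibres, was highest there too, at 6.88 FPKM against 0.361 in LNA92a 18. Although Myh7 is on the list, its level in these adult mice is not read as a sign of ventricle. Myl3, the essential light chain of ventricle and slow skeletal fibres, reached 8.59 FPKM in LNA92a 18 and 8.24 in LNA489 14. Lrrc10 reached 2.41 FPKM in LNA92a 18 and had 0 reads in LNA489 14, which allows up to 0.105 FPKM. Thus 2 of the 5 genes of the ventricular list found in the table were highest where the members were. The ventricular list, Myh7 included, summed to 11.4 FPKM in LNA92a 18 against 500.3 for the atrial list.

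Ratios within pairs of relatives were compared next. The share of a gene is its part of the pair's level per length, in libraries with at least 10 reads of the pair, with an exact Clopper-Pearson 95% interval that covers counting error only. Myl7 made up 99.99% of Myl7 + Myl2 in LNA92a 18 (99.92% to 100%), with a median of 98.5% over 19 libraries. Only HDL 3, with 0 reads of Myl7, and Saline 24, with 3, were below 50%. Myh6 made up 99.6% of Myh6 + Myh7 in LNA92a 18 (99.4% to 99.7%) and had a median of 96.3% over 20 libraries. Its share was 10.0% in LNA489 14 (8.22% to 12.1%) and was below 50% also in HDL 4, HDL 3 and Dual 15. The share of Myh6 is not read as a sign of atrium or ventricle. Myl4 made up 81.9% of Myl4 + Myl3 in LNA92a 18, 81.5% in Saline 2 and 28.5% in LNA489 14. The exons of Myl4 total 4637 bases and those of Myl3 2044, so this share per length lies below the share of reads. LNA92a 18 had 2101 reads of Myl4 and 204 of Myl3, and LNA489 14 had 304 and 336.

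Skeletal muscle transcripts were present beside the cardiac ones in every library, in proportions that varied widely. Tnni3 made up 97.4% of Tnni3 + Tnni2 in LNA92a 5, 83.6% in LNA92a 18 and 86.0% in Saline 2, against 4.19% in LNA489 14 and 3.31% in HDL 4, where it rested on 5 reads. Tnnt2 made up 47.5% of Tnnt2 + Tnnt3 in LNA92a 18 (45.5% to 49.5%) and 0.525% in LNA489 14 (0.453% to 0.605%), with a median of 18.8%. The exons of Tnnt2 total 7752 bases and those of Tnnt3 1583, so this share per length lies below the share of reads. LNA92a 18 had 3366 reads of Tnnt2 and 761 of Tnnt3, and LNA489 14 had 194 and 7505. The share of Ryr2 in Ryr2 + Ryr1 had a median of 70.9%, from 5.47% in LNA489 14 to 94.6% in Saline 2, and that of Mybpc3 in Mybpc3 + Mybpc2 a median of 38.8%. Myh6 and Myh7 are near-identical in parts of their coding sequence, and how reads with several matches were counted is not given in the sources used here, so the share of Myh6 is uncertain to that extent. Actc1, too, has near-identical relatives, and its level is uncertain in the same way.

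**Figure D3:**
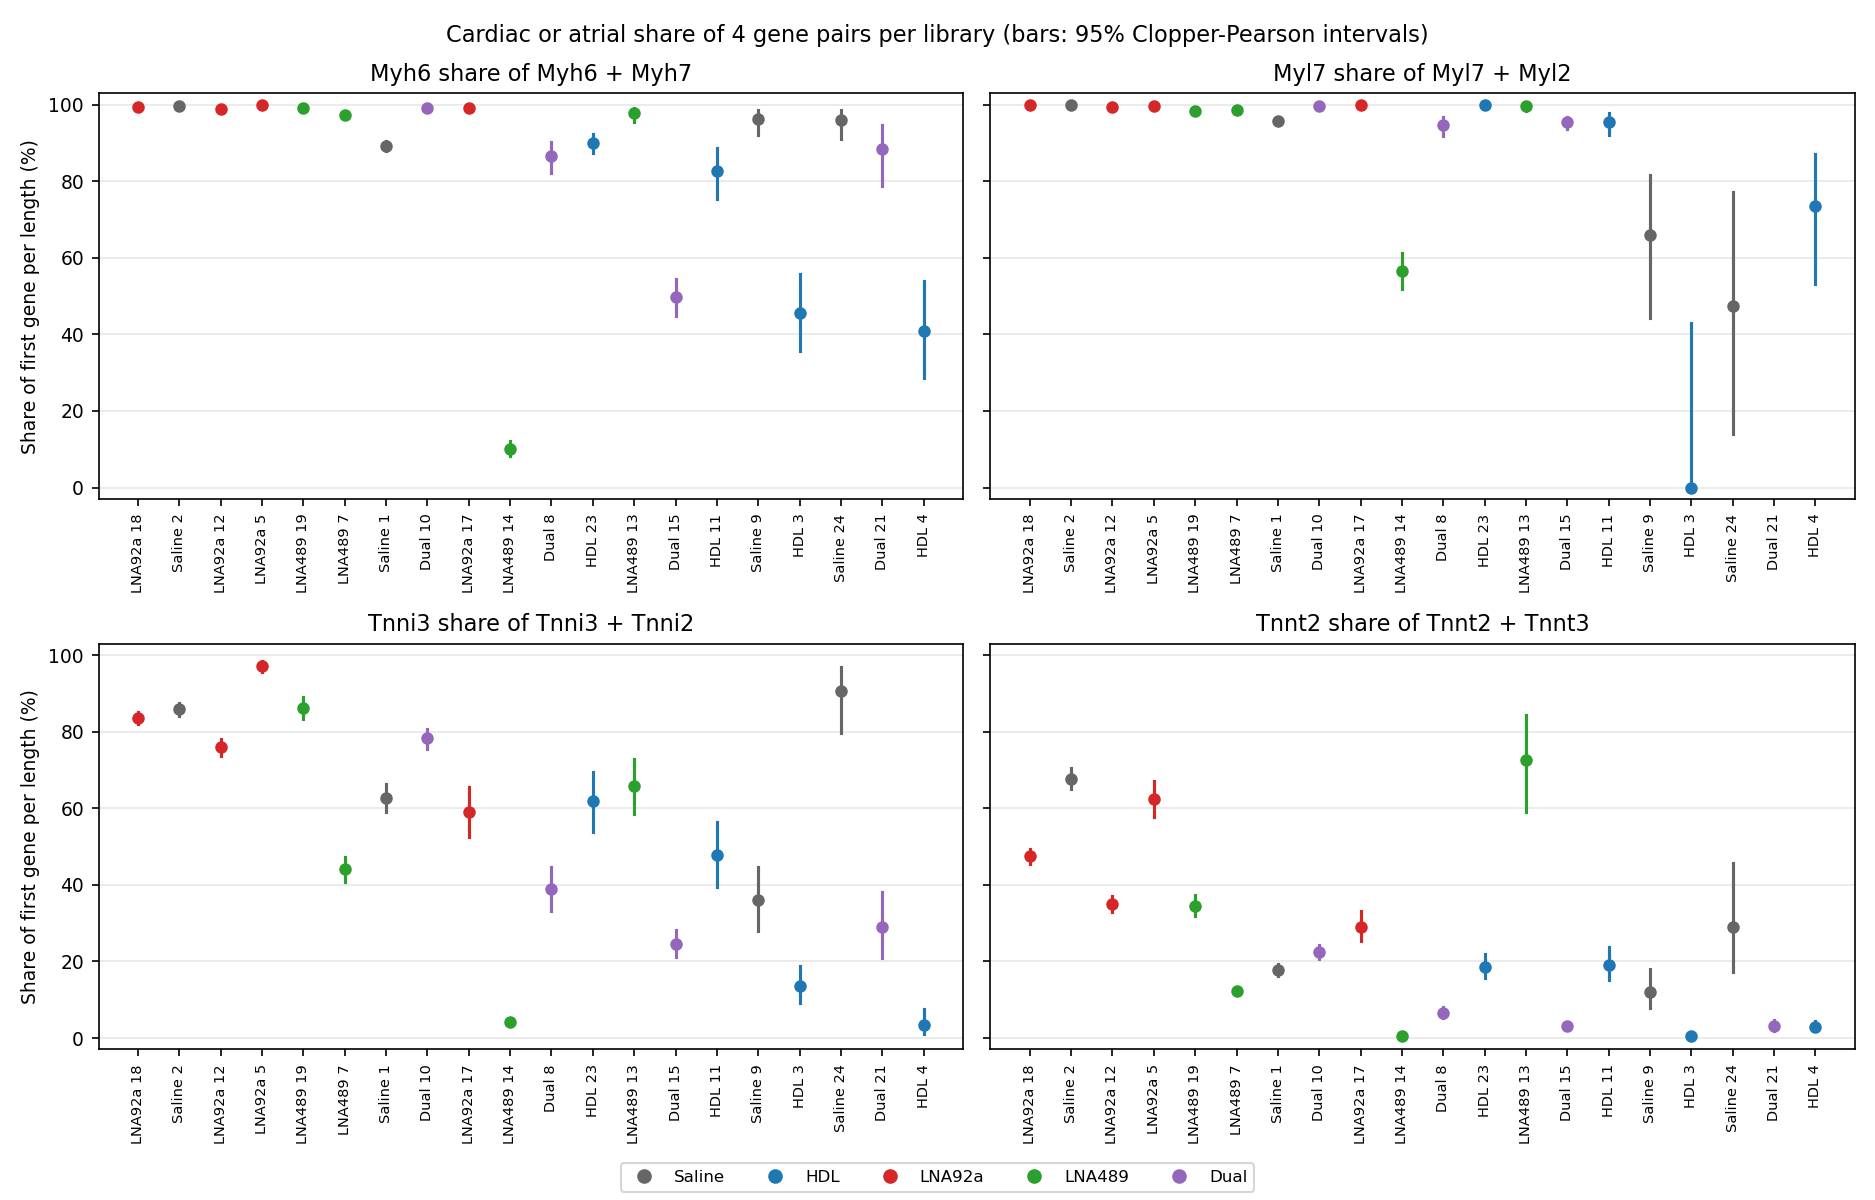
Share of the first gene in 4 pairs of relatives, in percent of the pair's level per length, for each library with at least 10 reads of the pair, in the order of the members' mean. Vertical bars are 95% Clopper-Pearson intervals. Myh6 and Myl7 hold nearly all of their pairs in the libraries at the left, and LNA489 14 lies low in all 4 panels.

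LNA489 14 had the highest skeletal and ventricular sums of the 20 libraries and rank 10 for the members' mean. Its Tnnt3 stood at 238 FPKM, and 22 of the 25 skeletal genes on the list were highest there. The sum of LNA489 14 over the other cardiac genes, 237.7 FPKM, was close to that of Saline 1 (237.8), and Trdn, Tbx5, Gata4, Myl2 and Myh7 of that list were highest in it. This sum is not specific to heart muscle. The list shares Fabp3, Cox6a2 and Myoz2 with the shared striated list, and Atp2a2 was at least 22.2 FPKM in every library. HDL 4, lowest in the members, summed to 100 FPKM on it. In LNA489 14 the 10 members summed to 36.7 FPKM, against 542 in LNA92a 18 and 328 in Saline 2, where the skeletal list summed to 328 and 144 FPKM. LNA489 13 had the lowest skeletal sum, 9.17 FPKM, with 25.5 FPKM of the members and 17.7 of the atrial list. Over the 10 members, Pearson's r with Myl7 over 20 libraries ran from 0.70 (Hrc) to 0.98 (Tnnt2), that with Tnnt3 from 0.33 (Mybpc3) to 0.70 (Hrc), and that with Myl2 from -0.21 (Mybpc3) to 0.23 (Hrc).

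**Figure D4:**
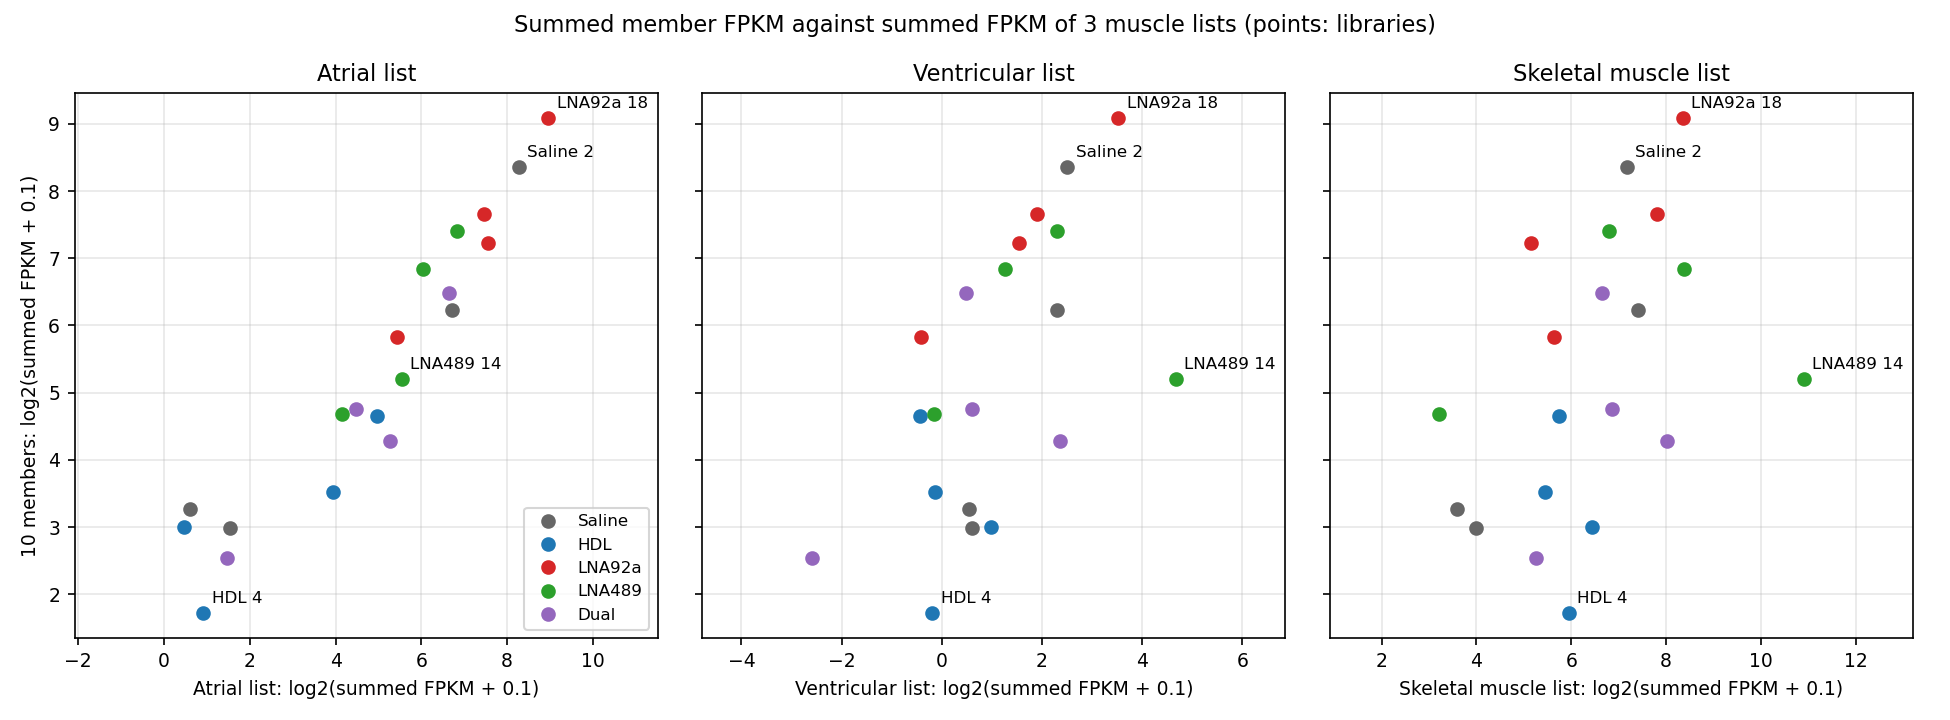
Summed FPKM of the 10 members (y axis) against summed FPKM of the atrial, ventricular and skeletal muscle lists (x axes), all as log2(value + 0.1), with 1 point per library coloured by group. The points lie closest to a line for the atrial list. Libraries high in the members also lie high for the ventricular list, and LNA489 14 lies far to the right for the ventricular and skeletal lists.

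Genes of other tissues near the aorta were compared with the same libraries. The members' r with the fat genes Adipoq and Ucp1 ran from 0.29 to 0.67 and from 0.32 to 0.68. HDL 4, the library with the highest fat sum (3775 FPKM), had the lowest member sum (3.19 FPKM), and LNA92a 18, with the highest member sum, had 666 FPKM of the fat list. With the smooth muscle gene Acta2, r lay between -0.08 and 0.09, with Pecam1 between -0.22 and 0.10, and with the macrophage gene Lyz2 between -0.32 and -0.10. The valve and endocardium list summed to 58.6 (Saline 1) to 1595 FPKM (HDL 23) and to 856 in LNA92a 18. This list includes Plvap, which endothelium outside the heart also expresses.

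The difference that chose the members, HDL + LNA92a against HDL, is given here as differences of mean variance-stabilized log2 values ± SE, with no test. For the thin filament it was 4.64 ± 1.26 for Actc1, 4.24 ± 1.14 for Tnnt2 and 4.01 ± 0.98 for Tnni3. The thick filament gave 4.78 ± 1.23 for Myh6 and 2.27 ± 0.67 for Mybpc3, and calcium handling 2.00 ± 0.74 for Ryr2, 2.68 ± 0.66 for Pln and 2.66 ± 0.64 for Hrc. Csrp3 gave 3.21 ± 0.83 and Ankrd1 3.62 ± 0.90. This scale compresses differences of weak genes such as Mybpc3, Ryr2 and Hrc. In FPKM, 8 of 10 members were higher in every HDL + LNA92a library than in every HDL library, a relation found for 0.321% of the 16848 genes, and Mybpc3 and Ryr2 were the exceptions. Since the rule used this contrast, nothing is read from that count.

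Other lists moved in the same contrast. Some of the 30 other cardiac genes listed are also on the atrial, ventricular or shared striated lists. Of the 21 tested, 19 were higher in HDL + LNA92a, with a median difference of 1.92. The 6 tested atrial genes were all higher, with a median of 3.27. Of the 3 tested ventricular genes 1 was higher (median -0.10), and 18 of 20 skeletal genes were (median 0.61). The 16 tested genes shared by striated muscles were all higher, with a median of 2.04. The 12 fat genes were also all higher, with a median of 2.00, as were the 8 fibroblast genes (1.39) and 10 of 11 smooth muscle genes (0.32), whereas 2 of 12 endothelial genes, 5 of 12 macrophage genes, 2 of 6 adrenal and 4 of 7 valve genes were higher. Over all genes the median was -0.06, and it moved to -0.47 on log2(FPKM + 0.1), where the median of the members was 4.26. The fat list summed to between 152 and 3775 FPKM in HDL and 666 and 3480 in HDL + LNA92a, and no fat gene but Lep and Elovl3 had a library at 0. The skeletal list summed to between 43.4 and 86.5 FPKM in HDL and 35.7 and 328 in HDL + LNA92a. The part of fat, fibroblast, skeletal muscle or ribosomal content in the members' difference was not tested.

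The contrasts that share the HDL or the HDL + LNA92a group with the rule are also described without a test. HDL lay below saline for all 10 members, with differences of -0.89 (Ryr2) to -2.21 (Myh6) on the log2 scale and SE of 0.64 to 1.26. Without Saline 2 the median of these differences was -0.56 in place of -1.29, and that of Actc1 was -0.31 in place of -1.60. HDL + LNA489 lay above HDL by 1.00 (Ryr2) to 3.07 (Actc1), and 2 of 10 members, Actc1 and Ankrd1, were higher in every library, against 0.356% of all genes. The dual group differed from HDL by -0.06 (Ryr2) to 1.21 (Tnni3), with a median of 0.81, which was 0.39 without Dual 10 and 1.38 without Dual 21. HDL + LNA92a lay above saline by 1.11 (Ryr2) to 3.05 (Actc1), and HDL + LNA489 differed from HDL + LNA92a by -0.51 (Hrc) to -2.33 (Myh6). The dual group differed from HDL + LNA92a by -1.72 (Mybpc3) to -3.93 (Myh6). In this last contrast 4 of 10 members, Myh6, Pln, Hrc and Ankrd1, were lower in every dual library than in every HDL + LNA92a library, against 0.172% of all genes. These contrasts share libraries, so their directions are not independent of each other or of the choice of members.

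Comparisons among saline, HDL + LNA489 and the dual group took their differences of means from none of the libraries that chose the members. They were tested with limma over all 16848 genes, with the spread estimated over all 5 groups. The libraries that chose the members therefore enter every SE, interval and p here, and the filter on mean FPKM. In HDL + LNA489 against saline, 8 of 10 members were nominally higher, with a median difference of 0.33 against -0.02 for all genes, and none passed the Benjamini-Hochberg adjusted threshold of 0.05. The differences were 1.47 ± 1.26 for Actc1 (95% interval -1.17 to 4.11), 0.10 ± 0.98 for Tnni3 (-1.95 to 2.15), 0.24 ± 1.23 for Myh6 (-2.34 to 2.82) and 0.90 ± 0.64 for Hrc (-0.46 to 2.25), each with an adjusted p of at least 0.996 in limma. Of all genes 0 (0%) passed the adjusted threshold, and 458 (2.72%) had an unadjusted p under 0.05, none of them a member. Limma's voom on recovered reads also called 0 genes, with 537 at an unadjusted p under 0.05. With Saline 2, LNA489 14 and Dual 10 left out together, all 10 members were nominally higher in HDL + LNA489 than in saline, with a median of 1.28. That fit again called 0 genes, with 2 members at an unadjusted p under 0.05, beside 443 of all genes (2.63%). These 3 libraries were chosen after the data were seen. Saline 2 and Dual 10 had the highest member means of their groups, so leaving them out lowers the members in saline and the dual group. The direction was not stable to single libraries: 4 members turned negative without Saline 9, 6 without Saline 24, 3 without LNA489 7 and 4 without LNA489 19, while Mybpc3 and Pln turned positive without Saline 2, LNA489 13 or LNA489 14.

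The dual group was nominally below saline for all 10 members, with a median of -0.69. The differences ran from -0.22 ± 0.83 for Csrp3 (95% interval -1.97 to 1.53) to -1.36 ± 1.23 for Myh6 (-3.94 to 1.22), with adjusted p values of 1.00 (limma). Of all genes 0 (0%) passed, 177 (1.05%) had an unadjusted p under 0.05 and none of these was a member, and voom called 0 with 247 at an unadjusted p under 0.05. Leaving out Saline 2 alone turned the direction of 6 members, Actc1, Tnnt2, Tnni3, Hrc, Csrp3 and Ankrd1, to between 0.075 and 0.83. Actc1 and Csrp3 also turned without Saline 1, and Actc1, Csrp3 and Ankrd1 without Dual 21. Without Saline 2, LNA489 14 and Dual 10, 3 members were nominally higher and the median was -0.24, with 0 members and 224 of all genes (1.33%) at an unadjusted p under 0.05.

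The dual group was also nominally below HDL + LNA489 for all 10 members, with a median of -1.13 against 0.00054 for all genes. The widest gaps were Actc1 at -1.93 ± 1.26 (95% interval -4.57 to 0.71) and Myh6 at -1.60 ± 1.23 (-4.18 to 0.98), and the smallest unadjusted p was 0.0517 for Hrc at -1.34 ± 0.64 (-2.69 to 0.01), with an adjusted p of 1.00 (limma). Of all genes 0 (0%) passed, 277 (1.64%) had an unadjusted p under 0.05 and none was a member, and voom called 0 with 363. Without Saline 2, LNA489 14 and Dual 10 the median was -1.79 and 5 members had an unadjusted p under 0.05, beside 252 of all genes (1.5%), still with 0 genes called. Dual 10 had the highest member mean of the dual group, so leaving it out lowers that group. The members also vary together, so nothing is read from the 5. The median was -0.66 without LNA489 7 and -0.73 without Dual 21, with all 10 members still lower. The intervals are wide beside these differences, and within saline alone Actc1 ran from 0.342 to 126 FPKM.

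**Figure D5:**
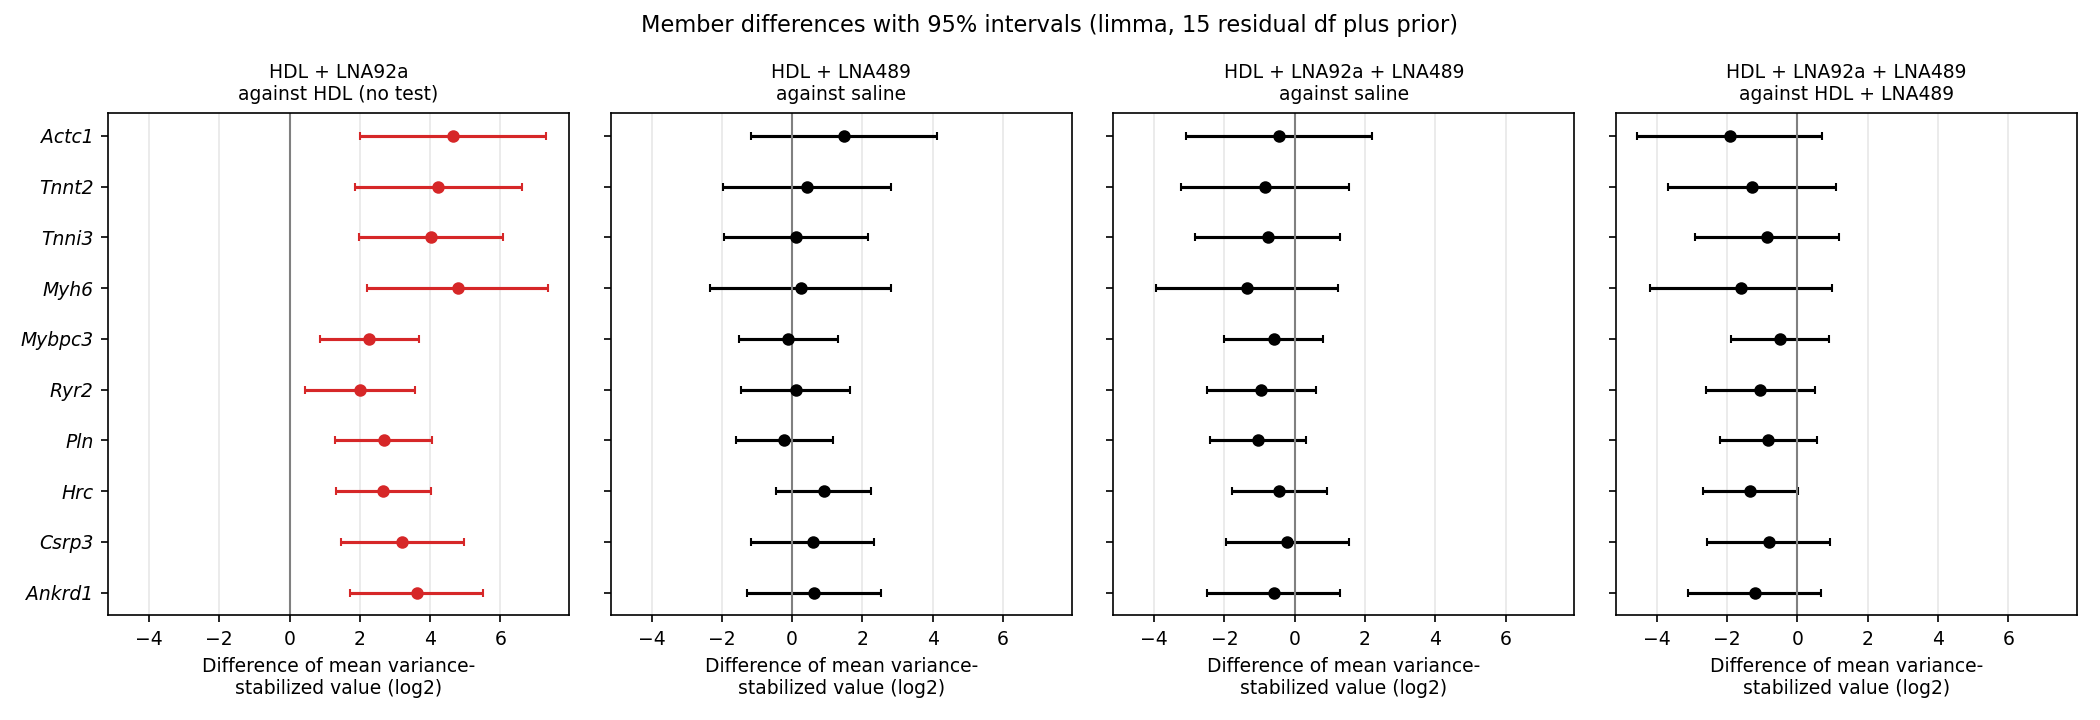
Difference of mean variance-stabilized log2 values for each member in 4 comparisons, with 95% limma intervals. The first panel (red) is the comparison that chose the members and carries no test. In the other 3 panels (black) the interval of every member includes 0.

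In these same 3 comparisons no gene of any marker list passed the adjusted threshold. In HDL + LNA489 against saline, 19 of 20 skeletal muscle genes were nominally higher with a median of 1.49 and 4 had an unadjusted p under 0.05, while the 6 tested atrial genes had a median of 0.23, with 4 higher. The 8 fibroblast genes were all nominally higher there (median 1.59), 11 of 12 fat genes too (1.23), and the 6 adrenal genes all lower (-1.79). In the dual group against saline the 6 atrial genes were all nominally lower (median -0.40) and 17 of 20 skeletal genes higher (median 0.53). The other cardiac genes had medians of 0.53, -0.25 and -0.88 in HDL + LNA489 against saline, the dual group against saline and the dual group against HDL + LNA489, with 18, 7 and 1 of 21 genes higher. In the dual group against HDL + LNA489, none of 20 skeletal genes, 16 shared striated genes or 8 fibroblast genes was higher (medians -0.95, -1.08 and -0.78), and 2 shared striated genes had an unadjusted p under 0.05. There 11 of 12 endothelial genes (median 0.71), 9 of 12 macrophage genes (0.98) and all 6 adrenal genes (2.27) were nominally higher. The part of these tissues in the members' differences, and the differences between the lists, were not tested.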

How the data were processed

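The deposited tables hold 20442 genes as log2-scale counts after the authors' variance stabilization, and 32081 genes as FPKM made by the authors. The submitters' processing notes list DESeq2 1.18.1, featureCounts 1.15.29, STAR 2.5.3a, cutadapt 1.16, FastQC and the build GRCm38.p5, with no role for any. Strand, annotation release and handling of multi-matching reads are not given in the sources used here. Replicates are separate animals per the labels, which give no batch.

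Reads were recovered from the deposited FPKM and gene lengths, and 100% of the checked values were whole to within 0.1. Limma 3.58.1 (R 4.3.3) was fitted to the variance-stabilized values with 5 group means over 20 libraries, 15 residual degrees of freedom and a mean trend, for genes with a mean of at least 0.5 FPKM, 2-sided, with Benjamini-Hochberg adjustment over all 16848. It was tested on simulated data. Members, lists and comparisons were chosen with earlier results of these data known.

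Genes named are all members, both genes of 17 pairs of relatives (1 pair is not reported here), the 4 most abundant genes of each of 12 marker lists, and the 10 genes outside the members with the highest Pearson's r with their mean. Lep, Elovl3, Plvap, Trdn, Tbx5, Gata4 and other genes named singly were chosen after their values were seen or for their known role. Marker lists were other cardiac genes, atrial, ventricular, skeletal, shared striated and smooth muscle, endothelium, fat, macrophage, fibroblast, adrenal cortex and valve. Pair intervals are Clopper-Pearson intervals of read counts, rescaled by gene length. Promoters are from RefSeq on GRCm38.p6. Of the 32081 gene identifiers, 31929 matched GENCODE M21 without their version. The alternatives were other filters, log2(FPKM + 0.1) and log2(FPKM + 1), median centring, array weights, no trend, voom, and leaving out each library.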

Additional observations from a re-analysis of the deposited data

Results flagged for a closer look

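Each group of 4 libraries was checked, for each of the 10 members, for a highest or lowest library whose gap to its neighbour exceeded Dixon's 95% critical value, as a share of the group's range, on the variance-stabilized scale. Of 50 groups 3 were marked, and chance marks about 1 in 20.

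Csrp3 in HDL was marked for HDL 23, at 0.314 FPKM from 11 reads, the highest of 4 libraries that all lay near the limit of detection. Csrp3 in HDL + LNA489 was marked for LNA489 13, at 0.268 FPKM against 3.30 to 3.82 FPKM in the other 3. Ankrd1 in the dual group was marked for Dual 21, at 0 FPKM, where 0 reads allow up to 0.105 FPKM, against 3.02 to 5.12 FPKM in the other 3.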

How the results depend on the processing

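In the 3 tested comparisons 0 genes and 0 members were called under every alternative, the added one included. Of 867 recomputed member differences in these comparisons 823 kept their direction and 44 turned it, all with an adjusted p over 0.05. For the dual group against saline, Csrp3 turned to 0.025 on log2(FPKM + 0.1), 0.23 with array weights and 0.16 with voom, and Actc1 to 0.24 with array weights. For HDL + LNA489 against saline, Ryr2 turned to -0.074 on log2(FPKM + 1). Without Saline 2, LNA489 14 and Dual 10 together, chosen after seeing the data, Mybpc3 and Pln turned to 0.71 and 0.79 in HDL + LNA489 against saline, and Actc1, Csrp3 and Ankrd1 to 0.13, 0.14 and 0.017 in the dual group against saline. The cause was not tested.

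Leaving out 1 library at a time gave, in HDL + LNA489 against saline, ranges of -0.39 to 1.54 for Tnnt2, -0.59 to 0.99 for Tnni3, -0.56 to 1.28 for Myh6, -0.53 to 0.48 for Mybpc3, -0.57 to 0.73 for Ryr2, -0.70 to 0.44 for Pln, -0.10 to 1.31 for Csrp3 and -0.036 to 1.54 for Ankrd1. In the dual group against saline the ranges were -1.36 to 0.83 for Actc1, -1.67 to 0.26 for Tnnt2, -1.46 to 0.11 for Tnni3, -0.86 to 0.075 for Hrc, -0.91 to 0.50 for Csrp3 and -1.25 to 0.32 for Ankrd1. Genes with an unadjusted p under 0.05 ranged from 225 to 1462, 100 to 388 and 197 to 906 in HDL + LNA489 against saline, the dual group against saline and the dual group against HDL + LNA489, against 458, 177 and 277 with all libraries. The first count was 225 without LNA489 7, 731 without Saline 2 and 1462 without LNA489 13. The second was 333 without Saline 2, 100 without Dual 15 and 388 without Dual 21, 292 with no filter and 332 with array weights, and the last was 906 without LNA489 13 and 758 with array weights.

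Of 2023 recomputed differences with no test, 2006 moved by less than the residual SD. In HDL + LNA92a against HDL every member stayed above 0 in every alternative, and the values that moved by more than the residual SD of their gene were Hrc at 6.04, Csrp3 at 5.12 and Mybpc3 at 4.07 with voom, Hrc at 3.87 on log2(FPKM + 0.1) and Ryr2 at 0.73 on log2(FPKM + 1). No paired analysis was possible because the animal numbers differ between groups. Genes with few reads, such as Hrc and Csrp3 in HDL, are limited by depth.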
